A study of Mus musculus with 12 samples.

Results

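The IL-17 cytokines Il17a, Il17f and Il17c, the receptor chains Il17ra, Il17rc, Il17re and Il17rd, and the signal genes Traf3ip2, Nfkbiz and Zc3h12a were followed in mouse ear skin injected with IL-17A, IL-36γ or both. These 10 genes of the 50684 in the count table were chosen by name, through the symbols that the deposited tables pair with Ensembl identifiers. Female C57BL/6 mice, 8 weeks old, received PBS, 1 µg IL-17A, 1 µg IL-36γ or 1 µg of each cytokine in 5 µL into the skin of the ear pinna. After 4 days of consecutive treatment, total RNA was taken from 1 part of the whole ear. It was sequenced as stranded libraries depleted of ribosomal RNA, with 76 cycles for each read of a pair. Each group held 5 mice, of which 3 drawn at random were sequenced, which gave 12 libraries in 4 groups. The comparisons ask how each cytokine alone and the combination act on this pathway in a skin model built for psoriasis. The ear holds keratinocytes, fibroblasts, muscle and immune cells, and a change in RNA per cell and a change in the number of cells of a type cannot be told apart in it.

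IL-17A and IL-17F are made mainly by T cells, gamma-delta T cells and innate lymphoid cells, and bind a receptor of the chains IL-17RA and IL-17RC. IL-17C is made by epithelial cells such as keratinocytes and binds IL-17RA with IL-17RE. The adaptor Act1, encoded by Traf3ip2, links the receptor to NF-κB and to proteins that stabilise messenger RNA. IκBζ, encoded by Nfkbiz, then turns on genes of defence and neutrophil attraction, whereas the ribonuclease Regnase-1, encoded by Zc3h12a, degrades transcripts of the pathway and so restrains it.

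The total of counts per library lay between 25293468 and 34759293. The skin label was met by keratinocyte markers, whose 8 genes summed to between 15120 and 20864 counts per 1000000 counts of the TMM-scaled library (CPM) in the PBS libraries. PBS replicate 1 stood apart in skeletal muscle RNA, where 10 marker genes summed to 484 CPM against 3294 and 3779 CPM in the other PBS libraries. Of the 10 genes, 9 passed the filter on low counts and were tested among 19408 genes, and Il17a did not. Il17f and Il17c reached 10 counts in 5 libraries each, all of them injected with IL-36γ, so they entered the test only through the groups where they were high. The other 7 tested genes reached 10 counts in every library. Changes were called at a Benjamini-Hochberg adjusted p below 0.05 in edgeR's quasi-likelihood test together with a log2 fold change beyond 1 in either direction.

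The windows from 250 bases before to 50 bases after the RefSeq start are shown for the 3 cytokine genes, since their transcripts were close to absent after PBS, and for Zc3h12a, since it was called in each comparison with PBS. RefSeq (GRCm38.p6) windows were at hand for 7 of the 10 genes. Capitals mark matches, on either strand, to the AP-1 motif TGANTCA, the STAT motif TTCNNNGAA, the TATA box TATAAA or the NF-κB consensus.

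Il17a: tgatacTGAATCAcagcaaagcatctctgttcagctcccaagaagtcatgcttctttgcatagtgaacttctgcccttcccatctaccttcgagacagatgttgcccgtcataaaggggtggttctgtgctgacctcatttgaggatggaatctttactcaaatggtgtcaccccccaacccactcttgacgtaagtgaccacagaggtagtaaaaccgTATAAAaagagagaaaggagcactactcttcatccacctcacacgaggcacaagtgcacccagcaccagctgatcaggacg

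Il17f: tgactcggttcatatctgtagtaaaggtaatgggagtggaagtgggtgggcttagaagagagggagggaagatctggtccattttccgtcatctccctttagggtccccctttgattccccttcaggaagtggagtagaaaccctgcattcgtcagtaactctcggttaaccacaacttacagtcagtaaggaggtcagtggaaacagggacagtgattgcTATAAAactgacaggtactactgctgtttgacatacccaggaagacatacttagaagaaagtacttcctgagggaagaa

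Il17c: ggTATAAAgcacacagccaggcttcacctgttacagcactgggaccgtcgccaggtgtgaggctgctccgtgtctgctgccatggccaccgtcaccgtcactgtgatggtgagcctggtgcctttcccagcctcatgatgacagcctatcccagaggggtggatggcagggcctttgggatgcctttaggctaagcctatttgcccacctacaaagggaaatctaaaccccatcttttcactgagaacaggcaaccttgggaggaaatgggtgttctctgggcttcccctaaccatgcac

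Zc3h12a: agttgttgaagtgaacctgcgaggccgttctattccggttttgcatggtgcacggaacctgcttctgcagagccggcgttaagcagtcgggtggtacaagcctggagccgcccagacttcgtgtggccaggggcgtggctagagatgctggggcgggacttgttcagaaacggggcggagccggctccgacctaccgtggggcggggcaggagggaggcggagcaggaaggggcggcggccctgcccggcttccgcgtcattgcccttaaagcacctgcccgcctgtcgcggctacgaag

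The Il17a window lies on the plus strand at chr1:20730655-20730954, and holds an AP-1 match from -244 to -238 and a TATA box from -31 to -26 relative to the start. The Il17f window, on the minus strand at chr1:20784221-20784520, holds a TATA box from -29 to -24, and its RefSeq start lies inside the longer GENCODE gene. The Il17c window, on the plus strand at chr8:122421770-122422069, holds TATAAA from -248 to -243. No match was found in the Zc3h12a window, on the minus strand at chr4:125127832-125128131, nor in those of Il17rc, Il17re and Il17rd. Of 32851 promoter windows of the same length, 7.81% held the AP-1 motif, 8.30% the STAT motif, 13.6% the TATA box and 4.51% the NF-κB consensus.

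The host's own Il17a transcript was counted only in libraries of ears that had received IL-36γ, and at very few counts. Il17a (ENSMUSG00000025929, chromosome 1 from 20730905 to 20734496 in GRCm38, plus strand, 3 exons) had 0 counts in each of the 3 PBS and the 3 IL-17A libraries. The IL-36γ libraries held 1, 6 and 0 counts, and the libraries with both cytokines held 3, 3 and 1. Injected IL-17A is a protein and adds no transcript to the libraries. Over the group, the 7 counts after IL-36γ, of which replicate 2 held 6, came to 0.0761 CPM with an exact Poisson 95% interval from 0.0306 to 0.157. The 7 counts after the combination came to 0.0845 CPM with an interval from 0.0340 to 0.174. A floor of 3 counts over the group allows up to 0.0287 CPM after PBS and up to 0.0368 CPM after IL-17A. Both intervals begin just above the PBS floor and include the floor of the IL-17A group, so no fold is given. Intervals and floors cover counting error only, and 1 IL-36γ library was itself at 0.

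Il17f and Il17c, by contrast, were countable in all 12 libraries and rose after IL-36γ, with or without IL-17A. Il17f (ENSMUSG00000041872, chromosome 1 from 20777146 to 20790617, minus strand) lies 42649 bases from Il17a, the nearest other gene of the set. It held 4, 6 and 1 counts after PBS and 7, 7 and 2 after IL-17A. After IL-36γ it held 8, 44 and 10 counts, and after both cytokines 26, 25 and 11. All libraries with IL-36γ exceeded all PBS libraries, and IL-36γ replicate 2 stood far above the other IL-36γ libraries. In CPM, Il17f was at 0.104 ± 0.0701 (SD, n = 3) after PBS, 0.192 ± 0.0978 after IL-17A, 0.650 ± 0.599 with IL-36γ and 0.766 ± 0.348 with both. The rise over PBS was 6.10-fold after IL-36γ (log2 2.61 ± 0.75 SE, adjusted p = 0.0229) and 6.97-fold after the combination (log2 2.80 ± 0.75 SE, adjusted p = 0.00981). The first of these calls was lost without IL-36γ replicate 2 (log2 1.5, adjusted p = 0.145) and without PBS replicate 3 (log2 2.20, adjusted p = 0.0902), whereas the second held without any 1 library. IL-17A alone gave a log2 difference of 0.87 with a 95% interval from -1.18 to 2.91, so that neither a rise nor a fall was detectable at this depth.

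**Figure D1:**
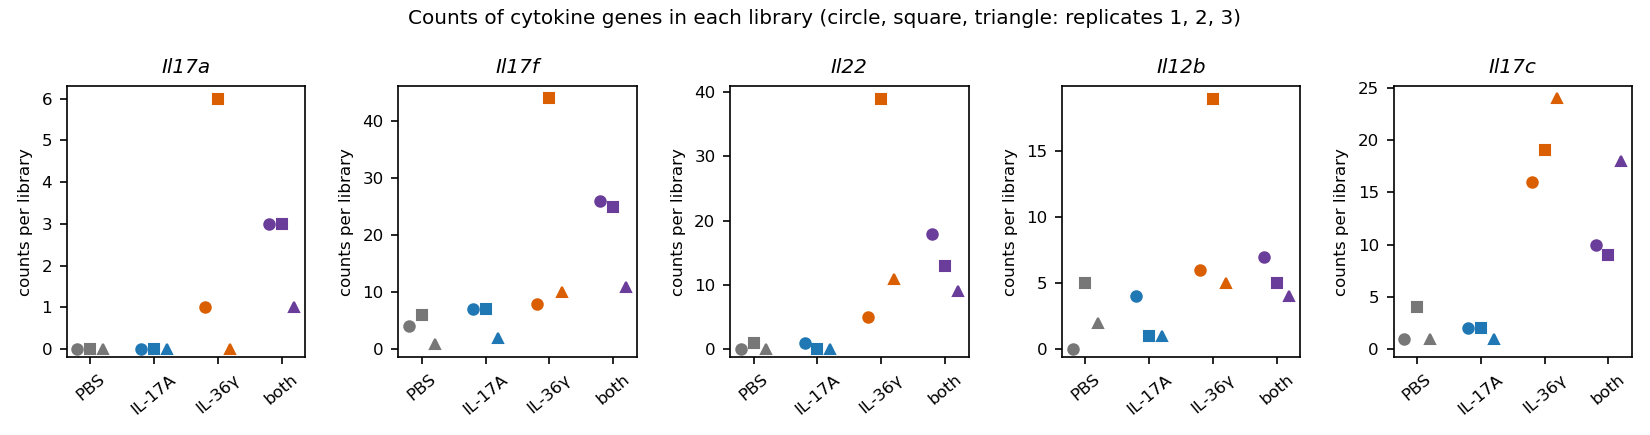
Counts per library (vertical axis, linear) of Il17a, Il17f, Il22, Il12b and Il17c in the 4 groups, with replicates 1, 2 and 3 as circle, square and triangle, and with "both" standing for IL-17A + IL-36γ. IL-36γ replicate 2 is the highest library for the first 4 genes, at 6, 44, 39 and 19 counts, but not for Il17c, where IL-36γ replicate 3 is highest at 24.

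Of the type 17 genes with low counts, Il22 and Il12b were also highest in IL-36γ replicate 2. Il22, which encodes a cytokine of type 17 cells that acts on epithelium, had 0, 1 and 0 counts after PBS and 1, 0 and 0 after IL-17A. It had 5, 39 and 11 counts after IL-36γ and 18, 13 and 9 after both cytokines, with no overlap between the groups with and without IL-36γ. The rise over PBS was called after IL-36γ (adjusted p = 0.00347) and after the combination (adjusted p = 0.00294), and no fold is given against a group with a single count. As with Il17f and Il17c, Il22 reached 10 counts only in libraries with IL-36γ and entered the test through them. Il12b, the shared subunit of IL-12 and IL-23, did not pass the filter and is named here after its values were seen. It had 6, 19 and 5 counts after IL-36γ and between 0 and 7 in every other library. Il23a, the other subunit of IL-23, held at most 8 counts in any library and 6 in IL-36γ replicate 2, and Il21 held 2 counts there and at most 1 elsewhere. The 10 type 17 genes together summed to 293 CPM in that library, against 294 and 301 CPM in the other IL-36γ libraries. The sum was 285 to 306 CPM after PBS too, where Il22 held at most 1 count. Genes at low counts add little to this sum, so it cannot show whether they differ. The 8 T cell markers summed to 37.3 CPM in IL-36γ replicate 2, against 37.2 and 38.7 CPM in the other IL-36γ libraries.

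Il17c (ENSMUSG00000046108, chromosome 8 from 122422020 to 122423639, plus strand, 2 exons) followed IL-36γ more evenly. It held 1, 4 and 1 counts after PBS and 2, 2 and 1 after IL-17A, but 16, 19 and 24 with IL-36γ and 10, 9 and 18 with both. No library without IL-36γ reached the lowest library with it. In CPM, the means were 0.0571 ± 0.0487 (SD, n = 3), 0.0606 ± 0.0182, 0.646 ± 0.158 and 0.440 ± 0.143 in the order PBS, IL-17A, IL-36γ and both. Il17c rose 10.5-fold over PBS after IL-36γ (log2 3.40 ± 0.48 SE, adjusted p = 0.000394) and 7.28-fold after the combination (log2 2.86 ± 0.51 SE, adjusted p = 0.000727). It was also 9.91-fold higher after IL-36γ than after IL-17A (adjusted p = 0.00359) and 6.85-fold higher after both than after IL-17A (adjusted p = 0.00230). IL-17A alone left a log2 difference from PBS of 0.09 with an interval from -1.53 to 1.71. The combination and IL-36γ alone differed by -0.53 in log2, with an interval from -1.29 to 0.22 and overlapping libraries.

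Markers of the cells that could carry these transcripts moved differently from each other. The 8 T cell markers summed to 28.7 to 32.3 CPM after PBS, 32.4 to 38.3 after IL-17A, 37.2 to 38.7 with IL-36γ and 32.2 to 37.3 with both. This sum joins genes that moved in opposite directions. Cd4, Cd8a and Trac were called higher than PBS after IL-36γ, and Cd8a and Trac after both. Of all tested genes, 5.01% and 7.32% were called higher in these comparisons. Cd3g was lower after both at the adjusted p alone (log2 -0.71, adjusted p = 0.00066). The 9 gamma-delta T cell markers summed to 25.0 to 30.0 CPM after PBS, 22.4 to 29.6 after IL-17A, 20.8 to 25.5 with IL-36γ and 15.5 to 17.5 with both. In this last list 4 genes of the gamma-delta receptor, Trdc, Trdv4, Tcrg-C1 and Trgv5, were called lower after the combination than after PBS. They fell by 1.14 to 1.74 on the log2 scale, in the same libraries in which Il17f was higher. Of the 19408 tested genes, 1130 were called lower in that comparison. Tcrg-C4 was lower at the adjusted p alone (log2 -0.93, adjusted p = 0.0168), and Tcrg-C2 did not pass (log2 -0.34, adjusted p = 0.322). Scart2 and Cd163l1, markers of the gamma-delta T cells that make IL-17, did not follow the 4 called genes. Scart2 was above PBS in every library with IL-36γ, by 0.72 in log2 after IL-36γ (adjusted p = 0.0277, short of the fold threshold) and by 0.35 after both (adjusted p = 0.213). Cd163l1 differed from PBS by -0.02 in log2 after both. The 8 keratinocyte markers summed to 25050 to 33411 CPM after IL-36γ and 31126 to 37118 after both, against at most 20864 after PBS. Of these 8 genes, Krt1 was called higher after IL-36γ, and Krt1 and Krt14 after both. Col17a1 was lower after both at the adjusted p alone (log2 -0.42, adjusted p = 0.00154), and Dsc3 (-0.16) and Trp63 (-0.09) did not pass. The part of these cell types in the cytokine levels was not tested.

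**Figure D2:**
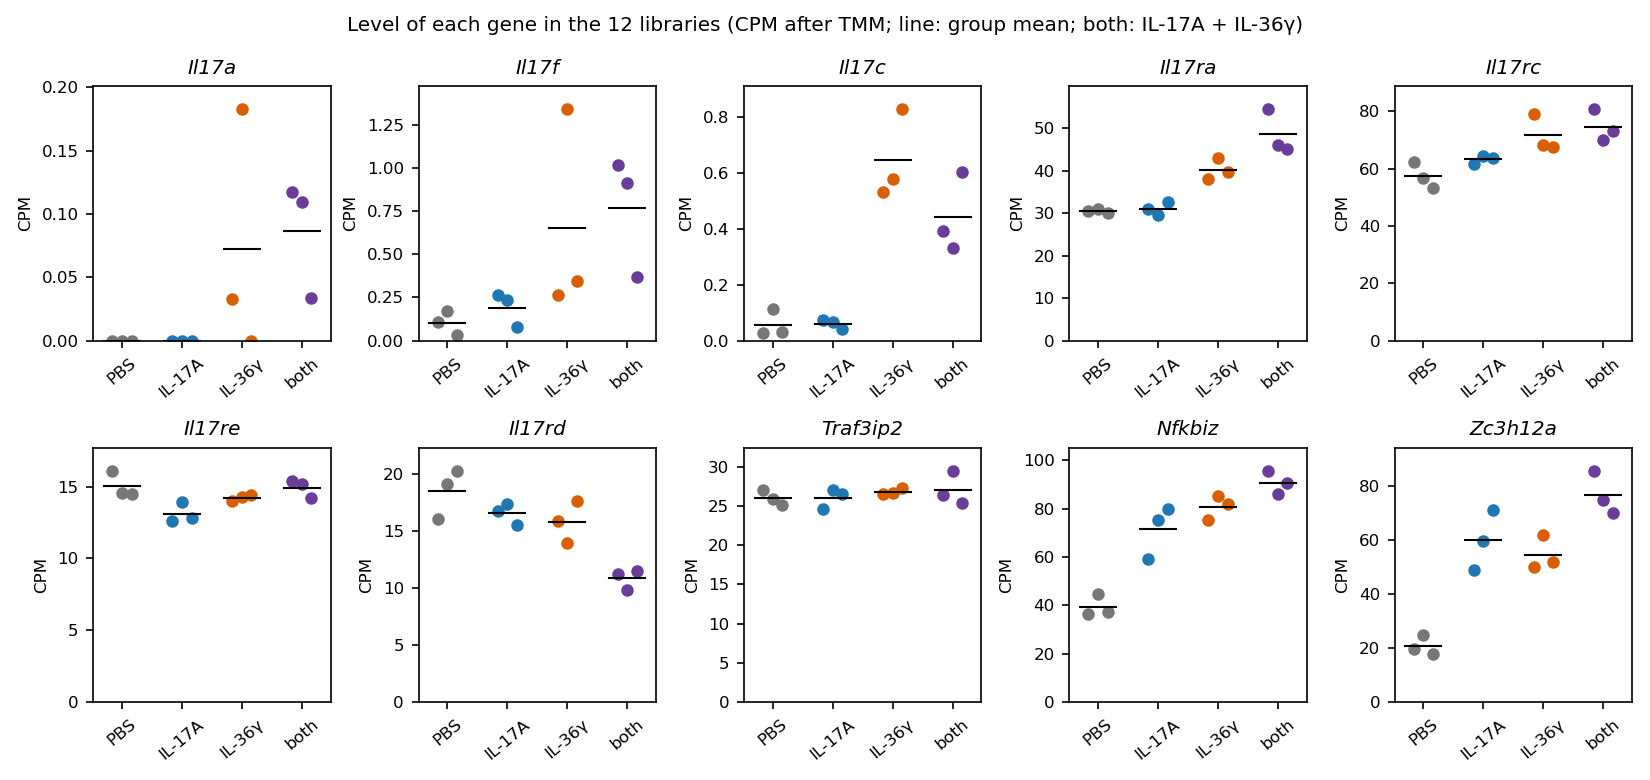
Level of each of the 10 genes in the 12 libraries, in CPM on linear axes from 0, with 1 point per library, a line at the group mean, and "both" for IL-17A + IL-36γ. Il17c separates the libraries by IL-36γ, Nfkbiz and Zc3h12a are above PBS in all cytokine groups, Il17rd is lowest after both cytokines, and Traf3ip2 stays between 24.6 and 29.5 CPM.

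Of the receptor chains, Il17ra and Il17rc were modestly higher in ears with IL-36γ, Il17rd was lower after the combination, and no change was called in Il17re. None of these differences passed the fold threshold, so they are given at the adjusted p alone. Il17ra (ENSMUSG00000002897, chromosome 6 from 120463247 to 120487559, plus strand) encodes the chain shared by the IL-17 receptors. It was at 30.6, 30.9 and 29.9 CPM after PBS and 31.0, 29.6 and 32.7 CPM after IL-17A. It was at 38.0, 43.0 and 39.6 CPM after IL-36γ and 54.4, 46.1 and 45.0 CPM after both. The IL-36γ libraries lay above all libraries without IL-36γ, and the libraries with both cytokines lay above those with IL-36γ alone. Il17ra was 1.32-fold above PBS after IL-36γ (log2 0.40 ± 0.08 SE, adjusted p = 0.00401) and 1.59-fold after the combination (log2 0.67 ± 0.08 SE, adjusted p = 6.98e-05). It was also 1.56-fold higher after both than after IL-17A (adjusted p = 0.000275). After IL-17A alone the log2 difference from PBS was 0.03 with an interval from -0.15 to 0.21. The step from IL-36γ to the combination was 0.27 in log2, with an interval from 0.09 to 0.45, and missed the threshold over all genes (adjusted p = 0.181).

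Il17rc (ENSMUSG00000030281, chromosome 6 from 113471427 to 113483140, plus strand) encodes the partner chain for IL-17A and IL-17F. Its levels were 62.3, 56.8 and 53.3 CPM after PBS, 61.6, 64.4 and 63.8 after IL-17A, 79.1, 68.4 and 67.6 with IL-36γ and 80.8, 69.9 and 73.3 with both. The libraries with IL-36γ all exceeded those without it, and the 2 groups with IL-36γ overlapped. Il17rc was 1.25-fold above PBS after IL-36γ (adjusted p = 0.0135) and 1.30-fold after the combination (adjusted p = 0.00286). The first of these did not pass when counts were scaled by library size only (adjusted p = 0.0850) and had an adjusted p of up to 0.0876 when 1 library was left out.

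Il17re (ENSMUSG00000043088, chromosome 6 from 113458484 to 113470758, plus strand) encodes the partner chain for IL-17C and ends 668 bases before Il17rc. It stayed between 12.6 and 16.1 CPM in all 12 libraries. The mean was 15.0 ± 0.928 CPM (SD, n = 3) after PBS, 13.1 ± 0.696 after IL-17A, 14.2 ± 0.210 with IL-36γ and 14.9 ± 0.641 with both. The log2 difference of the combination from PBS was -0.01, with an interval from -0.19 to 0.17. In the same libraries Il17c, the ligand of its receptor, was 7.28-fold above PBS.

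Il17rd (ENSMUSG00000040717, chromosome 14 from 27038941 to 27107286, plus strand) encodes a related chain also known as Sef, which restrains fibroblast growth factor signalling. Its levels were 16.1, 19.1 and 20.3 CPM after PBS and 16.8, 17.4 and 15.5 after IL-17A. They were 15.9, 13.9 and 17.7 CPM after IL-36γ and 11.2, 9.84 and 11.5 after both cytokines. The 3 libraries with both cytokines lay below all 9 others. Il17rd was 1.71-fold lower after the combination than after PBS (log2 -0.77 ± 0.12 SE, adjusted p = 0.000236) and 1.53-fold lower than after IL-17A (adjusted p = 0.00215). Against IL-36γ alone the log2 difference was -0.54, with an interval from -0.80 to -0.29 and an adjusted p of 0.0939. Skeletal muscle markers were also low after both cytokines, at a sum of 287 to 1460 CPM against 1331 to 2443 after IL-36γ, and their part in the lower Il17rd was not tested. The muscle sum of PBS replicate 1, 484 CPM, was close to the 475 CPM of combination replicate 1, while Il17rd was at 16.1 CPM in the former and 11.2 CPM in the latter. IL-17A replicate 3 had the highest muscle sum of its group, 3345 CPM, and the lowest Il17rd of it, 15.5 CPM. In the PBS, IL-36γ and combination groups, by contrast, the library with the lowest muscle sum also had the lowest Il17rd. These were PBS replicate 1 (484 and 16.1 CPM), IL-36γ replicate 2 (1331 and 13.9 CPM) and combination replicate 2 (287 and 9.84 CPM).

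Within the ear, levels per length can be compared between the chains. In RPKM, the CPM divided by the length of the gene's exons in kilobases, Il17rc was the most abundant receptor chain in each group, from 21.5 ± 1.69 (SD, n = 3) after PBS to 28.0 ± 2.07 after both. Il17ra followed with 3.52 ± 0.0572 after PBS and 5.60 ± 0.595 after both, Il17re was at 2.56 ± 0.158 and 2.54 ± 0.109, and Il17rd at 1.68 ± 0.197 and 0.986 ± 0.0795. The level of Il17rd relative to Il17ra, as a ratio of RPKM within each library, lay at 0.415 to 0.534 after PBS and 0.162 to 0.201 after both, without overlap. The 3 cytokine genes were all below 1 RPKM as group means, with Il17c highest at 0.898 ± 0.220 after IL-36γ. These values take the summed exons of GENCODE vM21 as the length, and a gene read mainly from a shorter transcript is understated.

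**Figure D3:**
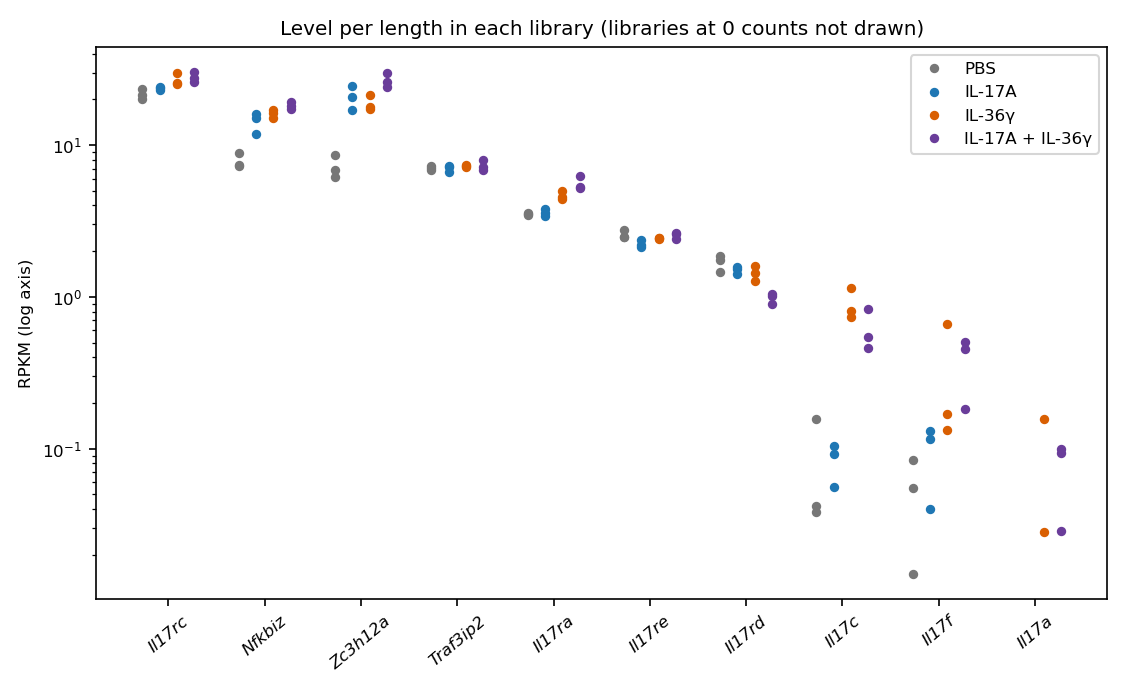
RPKM of each gene in each library on a log axis, with genes ordered by their PBS level and colours for the 4 groups. Libraries without a count are not drawn, so Il17a shows no PBS or IL-17A point, and the cytokine genes lie below the receptor chains in the PBS group.

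Among the signal genes no change was called in the adaptor Traf3ip2, whereas the regulators Nfkbiz and Zc3h12a rose with IL-36γ and the combination, and Zc3h12a also with IL-17A. Traf3ip2 (ENSMUSG00000019842, chromosome 10 from 39612934 to 39655307, plus strand) was at 26.0 ± 0.937 CPM (SD, n = 3) after PBS, 26.0 ± 1.26 after IL-17A, 26.8 ± 0.419 with IL-36γ and 27.1 ± 2.15 with both. Its libraries overlapped in every comparison of groups. The log2 difference from PBS was 0.00 after IL-17A (interval -0.16 to 0.17), 0.05 with IL-36γ (-0.12 to 0.21) and 0.06 with both (-0.10 to 0.22). The antisense gene E130307A14Rik shares 293 exonic bases with Traf3ip2, and the strand setting of the counting is not given in the sources used here.

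Nfkbiz (ENSMUSG00000035356, chromosome 16 from 55811375 to 55838899, minus strand) was at 36.5, 44.7 and 37.2 CPM in the PBS libraries. It was at 59.1, 75.4 and 80.1 CPM after IL-17A, 75.3, 85.4 and 82.1 with IL-36γ and 95.8, 86.0 and 90.6 with both. Every cytokine library lay above every PBS library, and the IL-17A and IL-36γ groups overlapped. Nfkbiz rose 2.05-fold after IL-36γ (log2 1.04 ± 0.11 SE, adjusted p = 6.93e-05) and 2.30-fold after the combination (log2 1.20 ± 0.11 SE, adjusted p = 1.28e-05). After IL-17A alone it was 1.81-fold above PBS (log2 0.86 ± 0.11 SE, adjusted p = 0.00405), short of the fold threshold. The IL-36γ value sits at that threshold: it was 0.89 in log2 with scaling by library size only, and 0.99, 0.99 and 1.00 without PBS replicate 1, PBS replicate 3 or IL-36γ replicate 2, which ended the call each time. The IL-17A value had an adjusted p of 0.0628 when only the PBS and IL-17A libraries were fitted.

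Zc3h12a (ENSMUSG00000042677, chromosome 4 from 125118423 to 125127840, minus strand) was at 19.7, 24.8 and 17.8 CPM after PBS. It was at 48.9, 59.7 and 71.0 CPM after IL-17A, 50.1, 61.8 and 51.6 with IL-36γ and 85.5, 74.6 and 69.8 with both. Every cytokine library lay above every PBS library, and the combination overlapped with IL-17A but not with IL-36γ. Zc3h12a rose 2.88-fold after IL-17A (log2 1.53 ± 0.15 SE, adjusted p = 0.00109), 2.62-fold after IL-36γ (log2 1.39 ± 0.15 SE, adjusted p = 0.000105) and 3.69-fold after the combination (log2 1.88 ± 0.15 SE, adjusted p = 8.18e-06). The 3 calls held in every alternative and without any 1 library. The IL-17A and IL-36γ groups differed by -0.13 in log2, with an interval from -0.46 to 0.19. The combination exceeded IL-17A by 0.36 (interval 0.03 to 0.68, adjusted p = 0.0862) and IL-36γ by 0.49 (0.17 to 0.81, adjusted p = 0.183), neither past the threshold over all genes.

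The 3 comparisons with PBS share the PBS libraries, so their values are given side by side and not as independent evidence. After IL-17A, 1 of the 10 genes was called higher, Zc3h12a, where 0.897% of all tested genes were called higher and 1.92% in either direction. That background rests on single libraries, since its 373 calls became 13 without PBS replicate 3 and 865 without PBS replicate 1. After IL-36γ, Il17c, Il17f, Nfkbiz and Zc3h12a were called higher, where 5.01% of all tested genes were called higher and 6.99% in either direction. After the combination the same 4 genes were called higher, against 7.32% of all tested genes called higher and 13.1% in either direction. None of the 10 was called lower in these comparisons. Without the fold threshold, 2, 6 and 7 of the 10 differed from PBS, the 7 being 6 higher and Il17rd lower, where 10.9%, 28.4% and 44.2% of all tested genes did. Since Il17f and Il17c entered through the groups where they were high, these counts are no support for the set as a whole. Libraries without overlap between the 2 groups were common among all tested genes, at 33.6% with IL-17A, 41.7% with IL-36γ and 52.5% with the combination against PBS, 20.6% for the combination against IL-36γ, 48.4% for the combination against IL-17A and 31.7% for IL-36γ against IL-17A. Of the 9 tested genes, 3, 7, 7, 4, 7 and 5 were so separated in the same order. The median log2 difference from PBS over all tested genes was 0.04 after IL-17A, -0.02 with IL-36γ and -0.03 with the combination.

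**Figure D4:**
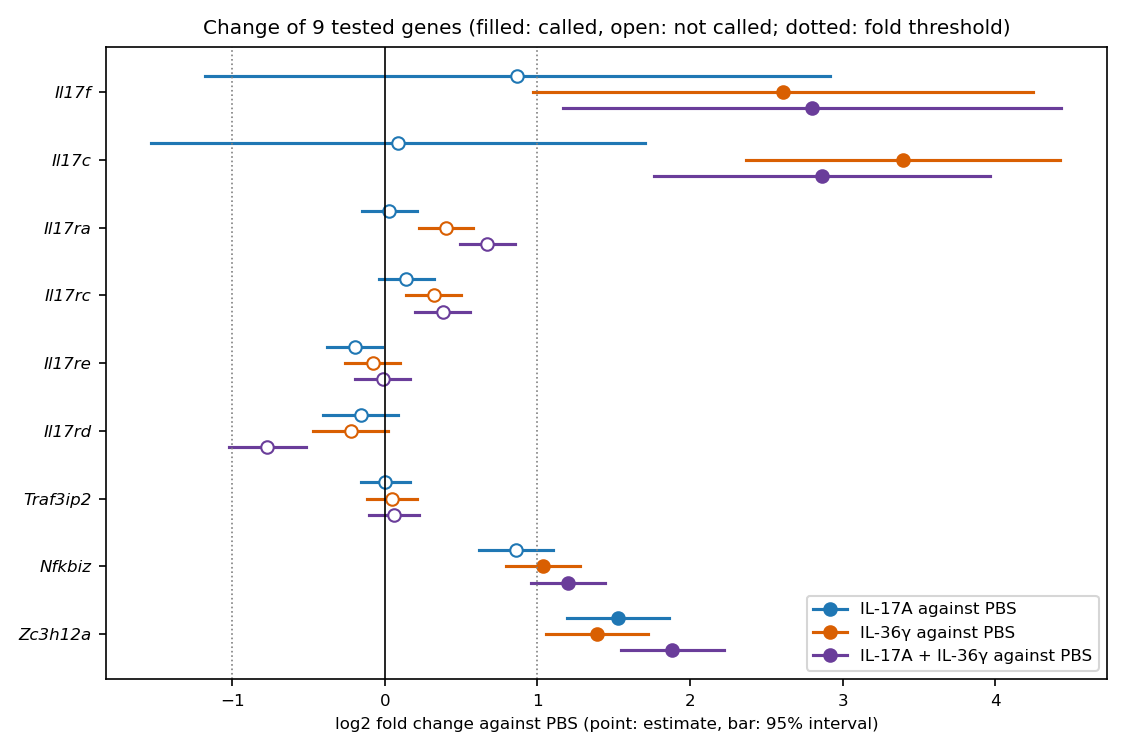
Log2 fold change against PBS (horizontal axis) of the 9 tested genes after each cytokine alone or both, with points for the estimates and bars for 95% intervals. Filled points are called, dotted lines mark the fold threshold, and the intervals of Il17f and Il17c are the widest, while those of Traf3ip2 lie within -0.16 to 0.22.

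Adding IL-17A to IL-36γ changed none of the 9 tested genes at the threshold. In the comparison of the combination with IL-36γ alone, 2 of all tested genes were called, or 0.0103%, and 6 genes, or 0.0309%, passed the adjusted p alone. The 2 calls became 81 without IL-36γ replicate 2 and 40 without combination replicate 3. In edgeR 3 of the 9 genes had an unadjusted p below 0.05, Il17ra, Il17rd and Zc3h12a, and their libraries did not overlap between the groups. DESeq2 on all 12 samples gave 0 calls among the 10 genes as well. Between the combination and IL-17A, 1 of the 9 tested genes was called, Il17c, where 8.51% of all tested genes were, a share near that background. Il17c had entered the test through the groups with IL-36γ. At the adjusted p alone Il17ra, Il17rc, Nfkbiz and Il17c were higher and Il17rd lower, where 32.2% of all tested genes differed. Nfkbiz was 1.27-fold higher (log2 0.34 ± 0.11 SE, adjusted p = 0.0306) and Il17rc 1.18-fold higher (adjusted p = 0.0431), both short of the fold threshold. Il17f was 3.82-fold higher with both cytokines than with IL-17A, and narrowly missed the adjusted p (0.0549), which it passed under a number of alternatives, with 0.00334 in DESeq2's likelihood ratio test as the lowest. In the direct comparison of IL-36γ with IL-17A, Il17c was again the gene called, against 1.42% of all tested genes, and at the adjusted p alone, which 7.66% of all tested genes passed, Il17ra was 1.30-fold higher (adjusted p = 0.0196).

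Whether the effect of IL-17A depended on IL-36γ was tested as an interaction, the log2 effect of IL-17A with IL-36γ minus that without it. For Zc3h12a the effect of IL-17A was 1.53 without IL-36γ and 0.49 with it, an interaction of -1.04 ± 0.21 SE (adjusted p = 0.0490), the single one called in the set, where 0.773% of all tested genes were called. For Nfkbiz the effect was 0.86 without IL-36γ and 0.17 with it, an interaction of -0.69 ± 0.16 SE (adjusted p = 0.0567). Both therefore lie at the threshold: that of Zc3h12a was lost when any 1 library other than PBS replicate 1 was left out, with adjusted p up to 0.145, and that of Nfkbiz passed in 3 of the alternatives, with 0.0087 in DESeq2 as the lowest. On the linear scale, the separate differences of Zc3h12a from PBS were 39.1 CPM for IL-17A and 33.7 CPM for IL-36γ, and that of the combination was 55.9 CPM. The combination minus the sum of the single effects was -17 ± 8.94 (SE) CPM for Zc3h12a and -22.2 ± 8.02 (SE) CPM for Nfkbiz. For Il17ra it was 7.67 ± 3.45 (SE) CPM, and its log2 interaction of 0.24 had an interval from -0.01 to 0.49. The intervals of the interactions of Il17f, -3.05 to 1.70, and Il17c, -2.49 to 1.25, were too wide to show whether IL-17A acts differently in the presence of IL-36γ. Neutrophil markers, 10 genes, summed to 13.5 to 89.0 CPM after PBS, 379 to 868 after IL-17A, 2276 to 4829 with IL-36γ and 7602 to 10030 with both. In this list S100a8 and S100a9, which are also counted as IL-17 targets below, rose 268-fold and 277-fold over PBS after both. The authors name macrophages and keratinocytes beside neutrophils as sources of their products, so the sum does not measure neutrophils alone. Mmp8 rose 26.4-fold, Csf3r 18.9-fold, Retnlg 12.0-fold and Cxcr2 8.21-fold. Macrophage markers, at 445 to 513, 653 to 878, 1024 to 1111 and 906 to 1040 CPM in the same order of groups, were also higher in the cytokine groups. Of the 6 macrophage markers 3 were called lower in the same interaction, Adgre1 (-0.99, adjusted p = 0.0362), C1qa (-1.07, adjusted p = 0.0366) and Csf1r (-0.63, adjusted p = 0.0369). Ly6g, which defines neutrophils, was at 0 in the PBS libraries, and the part of these cells was not tested.

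Of the remaining 4 genes of the family, 2 passed the filter. Il17d, whose product is a cytokine of non-immune tissues, fell 2.66-fold after the combination against PBS (log2 -1.41 ± 0.20 SE, adjusted p = 0.000140). Its levels were 2.30, 2.04 and 1.85 CPM after PBS, 2.14, 2.26 and 1.93 after IL-17A, 1.43, 1.28 and 1.31 with IL-36γ and 0.663, 0.951 and 0.702 with both. The groups with and without IL-36γ did not overlap, and Il17d was also 2.73-fold lower after both than after IL-17A (adjusted p = 0.000352). Il17rb, the receptor chain for IL-25, was 1.53-fold below PBS after IL-36γ (adjusted p = 0.0127) and differed from it by -0.59 in log2 after both (adjusted p = 0.00941), each short of the fold threshold. Il17rb shares 141 exonic bases with Actr8 on the other strand. Il17b held between 2 and 11 counts and Il25 between 0 and 2, and neither passed the filter.

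Genes that act around these 10 were taken as 5 lists, whose counts stand beside the 0.897%, 5.01% and 7.32% of all tested genes called higher than PBS with IL-17A, IL-36γ and the combination. Of 10 genes of type 17 cells, 7 were tested, 0 were called after IL-17A and 3 rose after IL-36γ, the cytokine Il22, the transcription factor Batf and the chemokine receptor Ccr6. The same 3 rose after the combination, where Batf was 4.02-fold (adjusted p = 0.000411) and Ccr6 2.15-fold above PBS (adjusted p = 0.00666). Il22 and Batf are also made by activated lymphocytes of other kinds. The list's median log2 difference from PBS was 0.14 after IL-17A, 0.93 with IL-36γ and 0.85 with both.

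Of the 14 adaptors, kinases and regulators that work beside Traf3ip2, all tested, 1 rose with IL-36γ and with the combination and 0 after IL-17A, a share near that of all tested genes. It was Tnfaip3, the NF-κB inhibitor A20, at 2.89-fold after IL-36γ (adjusted p = 0.0138) and 2.10-fold after both (adjusted p = 0.0372). The list's median log2 difference was 0.09, 0.20 and 0.22 in the order IL-17A, IL-36γ and both. Of 12 regulators of messenger RNA stability, 2 rose after IL-36γ, Zfp36 and Zc3h12d, and 1 after both, Zc3h12d, a relative of Zc3h12a, which was 2.41-fold above PBS (adjusted p = 0.000154). None rose after IL-17A. The 1 of 12 after both is near the 7.32% of all tested genes. The median was 0.09, 0.12 and 0.19. In the interaction 2 genes of this list were called lower, Zfp36l1 at -0.85 (adjusted p = 0.0112) and Zfp36l2 at -0.78 (adjusted p = 0.0369), named after their values were seen. Of all tested genes, 0.773% were called for the interaction in either direction. In the transcription factor list below 1 gene was called lower in it, Rel at -0.55 (adjusted p = 0.0385), and in the IL-17 target list 2, Lcn2 and Saa3. The type 17 and signalling lists held 0 such calls. Of the 8 T cell markers Cd4 was called lower, at -1.33 (adjusted p = 0.0226). In these lists 0 genes were called higher, and these genes too are named after their values were seen.

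Of 11 transcription factors downstream of the receptor, 0 were called after IL-17A, 2 rose with IL-36γ and 3 with both, where 5.01% and 7.32% of all tested genes rose. Pou2f2, the lymphocyte factor Oct-2, was 4.70-fold above PBS after both (adjusted p = 8.48e-05), Nfkbid, a nuclear IκB relative of Nfkbiz, 2.88-fold (adjusted p = 0.000193) and Bcl3, another such relative, 2.77-fold (adjusted p = 0.000322). The median was 0.31, 0.43 and 0.52.

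IL-17 target genes, a list of 19, include chemokines, alarmins and antimicrobial genes. Of the 18 tested, 8 rose after IL-17A, 10 with IL-36γ and 12 with the combination, with medians of 1.89, 2.66 and 3.73 in log2, and none fell. The largest differences after both were those of the alarmins S100a9 (log2 8.11 ± 1.14 SE) and S100a8 (8.07 ± 1.12 SE), the defensin Defb4 (7.70 ± 1.09 SE) and the acute-phase gene Saa3 (7.65 ± 0.53 SE). S100a8 and S100a9 are abundant in neutrophils and stand in the neutrophil marker list as well, but the authors also ascribe their products to macrophages and keratinocytes. Saa3 held 30, 33 and 12 counts after PBS, 810, 333 and 507 after IL-17A, 4240, 5525 and 4056 with IL-36γ and 3464, 2683 and 6034 with both. Against IL-36γ alone, 0 of the 18 were called after the combination, where 0.0103% of all tested genes were called in either direction. The median log2 difference there was 1.11. In 11 of the 18 every combination library lay above every IL-36γ library, and in 0 below. Libraries did not overlap in 20.6% of all tested genes in this comparison.

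**Figure D5:**
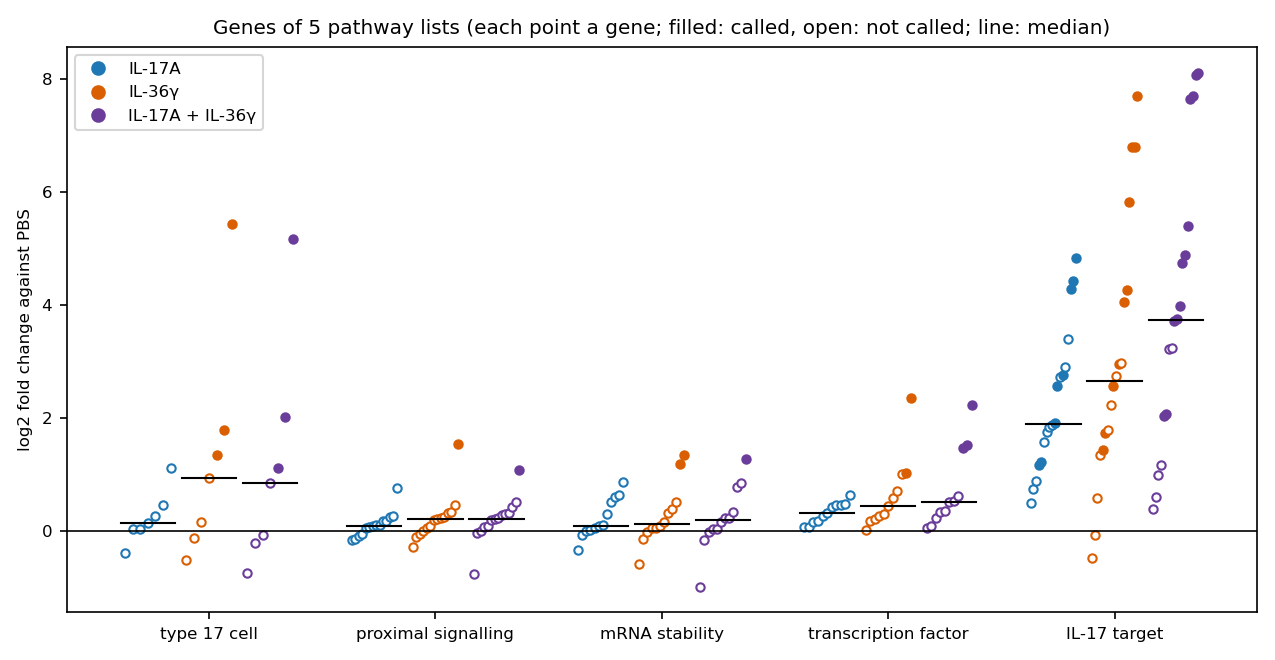
Log2 fold change against PBS (vertical axis) of each tested gene in 5 lists, in columns for each cytokine alone and for both, with a line at each list's median. Filled points are called, and the target list is spread far above 0 while the signalling list lies near it, with medians of 3.73 and 0.22 after the combination.

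Genes whose pattern over the 12 libraries was most like that of a called member were ranked by the root mean square difference of centred log2 CPM, as a description. For Nfkbiz these were Serpinb3b (0.129), Socs3 (0.162) and Fam111a (0.166), where the median over all tested genes was 0.544. For Zc3h12a they were Defb6 (0.223), Nfkbiz itself (0.292) and AI662270 (0.306), against a median of 0.779. For Il17c they were Apol9b (0.376), Hsh2d (0.411) and Apol9a (0.424), where Apol9a and Apol9b are close copies whose reads may be shared. For Il17f, whose counts are low, the nearest genes were no closer than 0.461 (Grpr), 0.478 (Fcrl1) and 0.486 (Gm37525).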

How the data were processed

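Libraries were grouped by their labels, with 3 mice per group. The authors aligned reads to mm10 with STAR 2.5.2b and featureCounts (Subread 1.5.1) assigned them to Ensembl genes, and the deposited values are these counts, without normalization. The annotation release and the strand setting are not given in the sources used here. The 5 deposited tables of the authors' own DESeq2 comparisons, with fold changes and p-values, were used for symbols only (47020 of 50684 identifiers). Lengths and positions come from GENCODE vM21. No library was a copy of another.

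In R 4.3.3, edgeR 4.0.16 (filterByExpr with a minimum count of 10, TMM, robust glmQLFit of 4 group means over 12 libraries, glmQLFTest) tested 19408 genes, with Benjamini-Hochberg adjustment over all of them. The script was tested on simulated data. CPM and RPKM use TMM library sizes. Alternatives changed the filter, scaling, samples, threshold, tool (DESeq2 1.42.0), replicate block or 1 library at a time, and the fit without the robust option was added after the data were seen. Total counts set a floor of 3 counts for a gene at 0, which covers counting error only. p-values measure the spread between mice.

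The genes and lists were chosen with earlier results of these data known. Named are all 10 genes, the other 4 of the family, up to 4 called genes per list by size of change after both cytokines, and the 3 most similar genes of each called member.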

Additional observations from a re-analysis of the deposited data

Results flagged for a closer look

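The effect of IL-17A on Zc3h12a differed between ears with and without IL-36γ by -1.04 on the log2 scale (adjusted p = 0.0490 in edgeR's quasi-likelihood test of the interaction). Zc3h12a rose with IL-17A from 17.8 to 24.8 CPM to 48.9 to 71.0 CPM without IL-36γ, whereas it was at 50.1 to 61.8 CPM with IL-36γ alone and 69.8 to 85.5 CPM with both. The direction was negative in every alternative, between -0.86 and -1.17, and the adjusted p lay between 0.00145 and 0.145. Over all genes 150 were called for the interaction, and between 1 (without IL-36γ replicate 1) and 1746 (without PBS replicate 1) when 1 library was left out.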

How the results depend on the processing

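Counting error limits Il17a, Il17f and Il17c, and 3 mice per group limit small differences of the others. The calls of Zc3h12a against PBS and of Nfkbiz, Il17f and Il17c after the combination were kept under each alternative that tested them. With at least 10 counts in every library Il17f and Il17c were not tested, which left 2 of the 10 genes called after IL-36γ and 2 after the combination against PBS, and 0 after the combination or IL-36γ against IL-17A. Without the fold threshold the counts called were 2 after IL-17A and 7 after the combination against PBS, 5 after the combination and 2 after IL-36γ against IL-17A. For the combination against IL-17A the replicate block, DESeq2 on all 12 samples and DESeq2's likelihood ratio test on the compared groups each called 2, since Il17f was added. Both DESeq2 fits called 0 for IL-36γ against IL-17A, where DESeq2 gave no adjusted p for Il17c. For the interaction DESeq2 size factors, library size only and the fit without the robust option called 0, and the replicate block and DESeq2 called 2, Zc3h12a and Nfkbiz. Leaving out 1 library gave 2 to 4 called after IL-36γ against PBS (2 without PBS replicate 3 or IL-36γ replicate 2), 1 to 2 for the combination against IL-17A (2 without IL-36γ replicate 1 or 2 or combination replicate 3), and 0 to 2 for the interaction (2 without PBS replicate 1, otherwise 0). The cause of the changes in the interaction was not tested.

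Nothing in the labels ties samples of 1 number together, and the numbers were not taken as pairs: deviations of same-numbered samples correlated with r from -0.199 to 0.352 (median 0.097), with 9 of 18 pairs over 0.1, against 9 of 36 pairs with different numbers (median -0.050). As a hint from the data, 8 of 12 libraries correlated best with their own number. The replicate block changed no other call of the 10 genes. Over all genes, IL-17A against PBS went from 373 calls to 13 with only the compared groups and to 569 with library size only, which also moved the split from 174 higher and 199 lower to 103 and 466. The combination against IL-36γ went from 2 to 0 with only the compared groups, and to 25 without a filter, 83 in DESeq2 and 141 in its likelihood ratio test. The replicate block and the stricter filter gave 1 there. The interaction went from 150 to 400 without a filter, 978 with the replicate block, 1125 in DESeq2, 94 with DESeq2 size factors and 1 with library size only. With 1 library left out, IL-17A against PBS gave 865, 119 and 13 calls without PBS replicates 1, 2 and 3, and 31 and 206 without IL-17A replicates 1 and 2. IL-36γ against IL-17A went from 275 to 64 without IL-17A replicate 2 and 77 without IL-36γ replicate 2. The combination against IL-36γ gave 81 without IL-36γ replicate 2, 40 without combination replicate 3, 6 without PBS replicate 1, 2 without PBS replicate 2 and otherwise 0. The interaction gave 1746 without PBS replicate 1, 321 without IL-36γ replicate 2, 125 without IL-17A replicate 3, 130 without combination replicate 3 and otherwise 1 to 25.

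With library size as the only scaling, the median over all genes against PBS was -0.13 with IL-17A, -0.16 with IL-36γ and -0.17 with the combination. That scaling moved mean levels in PBS to 33.0 CPM for Il17ra, 62.2 for Il17rc, 16.3 for Il17re and 28.1 for Traf3ip2, that of Il17rc after IL-17A to 60.9, and those after IL-36γ to 13.9 for Il17re and 26.2 for Traf3ip2. It turned the sign of uncalled log2 differences of Il17c (-0.074), Il17ra (-0.14), Il17rc (-0.029) and Traf3ip2 (-0.17) after IL-17A, of Traf3ip2 after IL-36γ (-0.10) and the combination (-0.084), and of the interaction of Il17rc (0.10). After IL-17A, Il17ra was at -0.0098 without a filter, -0.0082 with only the compared groups and -0.0021 in DESeq2's likelihood ratio test. Traf3ip2 was there at -0.034, -0.033 and -0.026, at -0.019 with the stricter filter, -0.014 with DESeq2 size factors and -0.0066 in DESeq2, and against IL-36γ after the combination at -0.0034 without a filter. With 1 library left out, the sign of further uncalled differences was not fixed. Against PBS they ranged after IL-17A from -0.24 to 0.97 for Il17c, -0.0060 to 0.034 for Il17ra and -0.055 to 0.034 for Traf3ip2, and after the combination from -0.037 to 0.042 for Il17re and -0.018 to 0.12 for Traf3ip2. Between the combination and IL-36γ they ranged from -0.16 to 1.30 for Il17f, -0.0012 to 0.15 for Il17rc and -0.043 to 0.069 for Traf3ip2, and between IL-36γ and IL-17A from -0.14 to 0.018 for Il17rd and -0.25 to 0.0053 for Zc3h12a. The interactions ranged from -1.18 to 0.43 for Il17f, -0.15 to 0.040 for Il17rc and -0.021 to 0.078 for Traf3ip2.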
